A study of Mus musculus with 6 samples.

Results

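The genes described here are 10 genes of the NRF2 antioxidant and glutathione system in Lewis lung carcinoma tumors of mice given photodynamic therapy. They were taken by name, and not by a threshold on a measured value, as the entries of the deposited expression table with the symbols Nfe2l2, Slc7a11, Gclc, Gclm, Gsr, Prdx1, Srxn1, Hmox1, Nqo1 and Osgin1. The names were chosen with earlier results of these data known, so counts set beside shares of all genes are descriptions. All 10 were found among the 21899 genes listed, and all 10 passed the filter on low values, a mean of at least 1 FPKM (fragments counted on a gene per kilobase of its exons, relative to all fragments counted in the sample).

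NRF2, the protein encoded by Nfe2l2, is a transcription factor that KEAP1 holds in the cytoplasm and marks for degradation. Oxidants and electrophiles modify KEAP1, NRF2 then accumulates in the nucleus, and it binds antioxidant response elements beside its target genes together with a small MAF protein. The targets include the enzymes that make and recycle glutathione, the main small thiol of the cell, as well as enzymes that repair peroxiredoxins, break down heme and reduce quinones. Much of the control of NRF2 is on the protein, which RNA sequencing does not measure.

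RNA was sequenced from tumors of male C57BL/6 mice weighing 18 to 20 g, grown from LLC-luc cells (Lewis lung carcinoma, a transplantable mouse lung tumor, here with a luciferase reporter) placed under the skin of the chest. The Laser group was irradiated without a photosensitizer. The PC-La group had phycocyanin (PC), a light-absorbing protein of algae and cyanobacteria, injected at the tumor before irradiation, and the SePC-La group had selenium-enriched phycocyanin (SePC). By the labels, injections were given every 5 days and a 620 nm laser was applied for 10 min, 4 h after the injection. The methods state the interval and the wavelength differently, and give the irradiation of the mice as a light dose rather than a time. Each group had 2 samples, as in the methods, although the results section of the paper speaks of triplicates. All 3 groups were irradiated, so every comparison is among irradiated tumors of a single transplanted line. The labels do not say how many tumors or animals a sample came from, and p-values measure only the spread between these samples.

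The recovered totals were 14447792 to 17649489 reads per sample, and the 10 genes had from 72 reads (Nqo1 in SePC-La replicate 1) to 10797 reads (Prdx1 in SePC-La replicate 2). The Laser samples were the least alike, with a correlation of log2 values over genes (not independent replicates) of 0.946, against 0.972 within SePC-La and 0.992 within PC-La. Laser replicate 1 correlated more strongly with the PC-La samples (0.986 and 0.983), and also with both SePC-La samples, than with Laser replicate 2. Laser replicate 2 in turn correlated more strongly with the SePC-La samples (0.961 and 0.953) than with Laser replicate 1. Values with a Laser sample left out are given below where a call or a direction changed. The tissue is labelled as lung cancer tissue, but of 6 lung epithelial markers Scgb1a1 and Nkx2-1 were at 0 in all samples and Sftpa1, Sftpb and Sftpc were below 1 FPKM in every sample. The remaining one, Ager, lay between 0.679 and 1.37 FPKM. Of 5 general epithelial markers, Epcam, Krt19 and Cdh1 averaged below 1 FPKM, and the summed level of the list, 188 to 277 FPKM, came almost wholly from Krt8 and Krt18.

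Antioxidant response elements were looked for in the promoters, since most of the genes are known NRF2 targets. The core motif TGACNNNGC was searched on both strands in the 250 bases upstream of the start of transcription, in the RefSeq promoter sequences of GRCm38.p6. A promoter was given for 7 of the 10 genes, Nqo1, Gclm, Srxn1, Slc7a11, Prdx1, Osgin1 and Nfe2l2. The whole Osgin1 window lay inside the span of the gene given below, and sequence farther upstream was not searched for any gene. The motif stood in 3 of these 7, against 10.2% of all 32851 promoters and 11.5% of the genes they belong to. The 3 sequences below are shown because they hold it. They are read 5′ to 3′ on the strand of the gene, with the motif in capitals, and in Gclm and Prdx1 the motif is on the other strand (GCNNNGTCA).
Gclm, chr3:122245408-122245446, plus strand, 134 to 126 bases upstream: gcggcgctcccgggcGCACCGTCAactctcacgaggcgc
Prdx1, chr4:116685451-116685489, plus strand, 133 to 125 bases upstream: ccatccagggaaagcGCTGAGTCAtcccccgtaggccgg
Nfe2l2, chr2:75704880-75704913, minus strand, 240 to 232 bases upstream: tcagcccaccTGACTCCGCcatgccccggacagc
In Prdx1 the motif overlaps a match to TGANTCA, the core bound by AP-1 factors. These matches are letters in a window and were not tested for binding. Positions are given on GRCm38, whose exon lengths turned the deposited values into whole reads, although the submitters' processing notes name mm9.

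Hmox1 was the most abundant of the 10 genes on the FPKM scale, with a mean of 200.1 FPKM over the 6 samples, and Prdx1 followed with 162 FPKM. Gsr (76.8), Nfe2l2 (62.9) and Srxn1 (38) came next, then Gclc (14.0), Gclm (11), Nqo1 (9.14), Osgin1 (3.37) and Slc7a11 (1.88 FPKM). Neighbours in this order overlapped over the 6 samples, except that every Prdx1 value was above every Gsr value, every Nfe2l2 value above every Srxn1 value, and every Srxn1 value above every Gclc value. The plot of levels shows the 10 genes in the order of their roles.

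**Figure D1:**
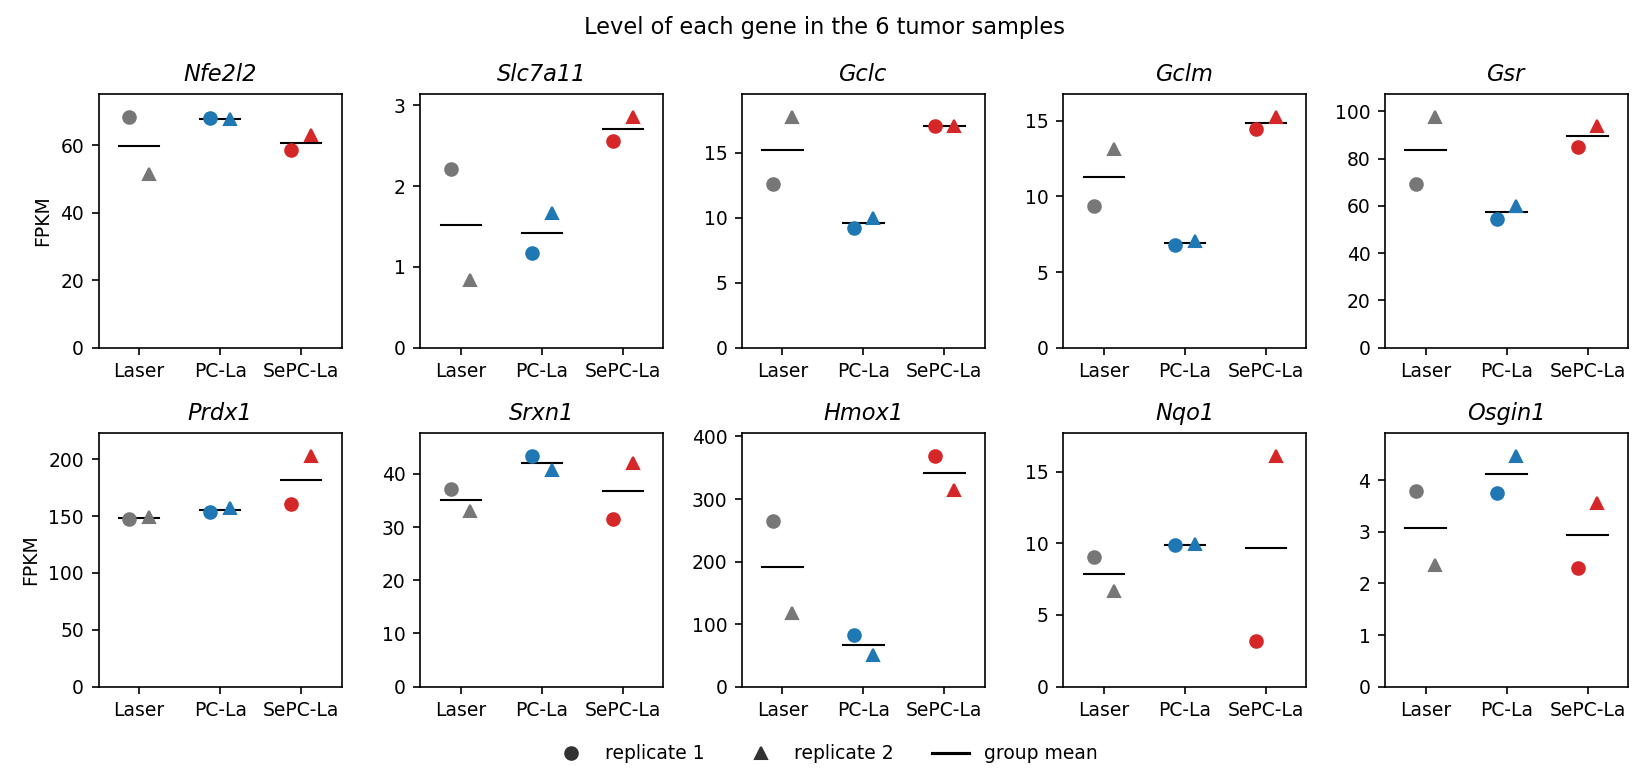
Level of each of the 10 genes in FPKM (vertical axis, starting at 0) in the 2 samples of Laser, PC-La and SePC-La. Circles are replicate 1, triangles replicate 2 and lines the group mean. Hmox1, Gclc, Gclm and Gsr have both PC-La samples below the other 4, and Nqo1 has its lowest and its highest value within SePC-La.

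Nfe2l2 (ENSMUSG00000015839, chromosome 2 from 75675513 to 75704641, minus strand) encodes NRF2 itself. The Laser samples had 68.6 and 51.4 FPKM of Nfe2l2, those of PC-La 68.1 and 67.7, and those of SePC-La 58.7 and 63.0. Laser held both the highest and the lowest value, and both SePC-La samples lay below both PC-La samples. On the log2(FPKM + 1) scale, which understates changes of low genes, PC-La differed from Laser by 0.19 (95% interval -0.20 to 0.58), SePC-La from Laser by 0.03 (-0.35 to 0.42) and SePC-La from PC-La by -0.16 (-0.54 to 0.23). None of these 3 differences had p under 0.05 in limma. Each interval holds 0, and with 2 samples a group true differences anywhere within these bounds remain possible. Among the other 10852 genes tested, the pattern over the 6 samples most like that of Nfe2l2 was that of Cttn, with a root mean square difference of 0.029 after centring the log2 values of each gene. Zfp764 (0.030) and Abraxas2 (0.031) followed.

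Slc7a11 encodes the cystine-carrying subunit of the system xc- exchanger, which brings in the cystine from which glutathione is made. It lies on chromosome 3 from 49892526 to 50443614 (ENSMUSG00000027737) and was the least abundant of the 10, from 205 to 695 reads. The Laser samples had 2.21 and 0.834 FPKM of Slc7a11, those of PC-La 1.18 and 1.66, and those of SePC-La 2.56 and 2.86. Both SePC-La samples were above the other 4, and the Laser samples lay on either side of PC-La. SePC-La differed on the log2 scale by 0.61 from Laser (95% interval -0.08 to 1.3, adjusted p = 0.439 from limma) and by 0.62 from PC-La (-0.07 to 1.31, adjusted p = 0.237). At so low a level, the 1 added to each value makes these log2 differences smaller. As a ratio of means, SePC-La stood at 1.78 times Laser and 1.91 times PC-La. Under the alternatives that kept every sample, the log2 difference ran from 0.61 to 1.02 against Laser and from 0.62 to 0.96 against PC-La. The difference of PC-La from Laser was -0.01 and turned to 0.39 without Laser replicate 1.

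Gclc and Gclm encode the catalytic and the modifier subunit of glutamate-cysteine ligase, the rate-limiting enzyme of glutathione synthesis. Gclc (ENSMUSG00000032350, chromosome 9 from 77754535 to 77794485) stood at 12.6 and 17.8 FPKM (Laser), 9.19 and 9.99 (PC-La) and 17.1 in each SePC-La sample. Gclm (ENSMUSG00000028124, chromosome 3 from 122245557 to 122270732) stood at 9.39 and 13.2 FPKM (Laser), 6.79 and 7.05 (PC-La) and 14.5 and 15.3 (SePC-La). For both genes the PC-La samples were the lowest of the 6. The SePC-La samples of Gclm were the highest of the 6, while Gclc in Laser replicate 2 was above SePC-La.

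The group means of Gclc were 15.2 ± 3.69 (Laser), 9.59 ± 0.564 (PC-La) and 17.1 ± 0.00877 FPKM (SePC-La), each with its SD and n = 2. The Gclm means were 11.3 ± 2.67, 6.92 ± 0.183 and 14.9 ± 0.580 FPKM in the same groups. As a ratio of means, SePC-La stood at 1.78 times PC-La for Gclc and 2.15 times for Gclm. The ratio of Gclc to Gclm FPKM was 1.34 and 1.35 (Laser), 1.35 and 1.42 (PC-La) and 1.18 and 1.12 (SePC-La), so that it was lower in both SePC-La samples than in the other 4. The 6291 exon bases of Gclm overlap 2 other annotated genes, Gm17494 on the opposite strand and the pseudogene Gm6061 on the same strand. The larger overlap is 296 bases, and how reads there were counted is not known.

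Gsr (ENSMUSG00000031584, chromosome 8 from 33652523 to 33698163) encodes glutathione reductase, which returns oxidized glutathione to its reduced form with NADPH. It stood at 69.2 and 97.8 FPKM (Laser), 54.6 and 60.0 (PC-La) and 85.0 and 94.0 (SePC-La). PC-La was again the lowest group, without overlap with either other group, and SePC-La lay between the Laser samples. The means were 83.5 ± 20.3, 57.3 ± 3.84 and 89.5 ± 6.33 FPKM (SD, n = 2 each). Gsr followed Gclc closely, at 5.50 times its FPKM in each Laser sample, 5.93 and 6.00 times under PC-La and 4.98 and 5.50 times under SePC-La. Of all pairs among the 10 genes, Gclc and Gsr had the most similar pattern over the 6 samples (root mean square difference 0.071 on the centred log2 scale), followed by Gclc and Gclm (0.107) and by Srxn1 and Nfe2l2 (0.120). These likenesses are descriptions over 6 samples that share 3 treatments.

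**Figure D2:**
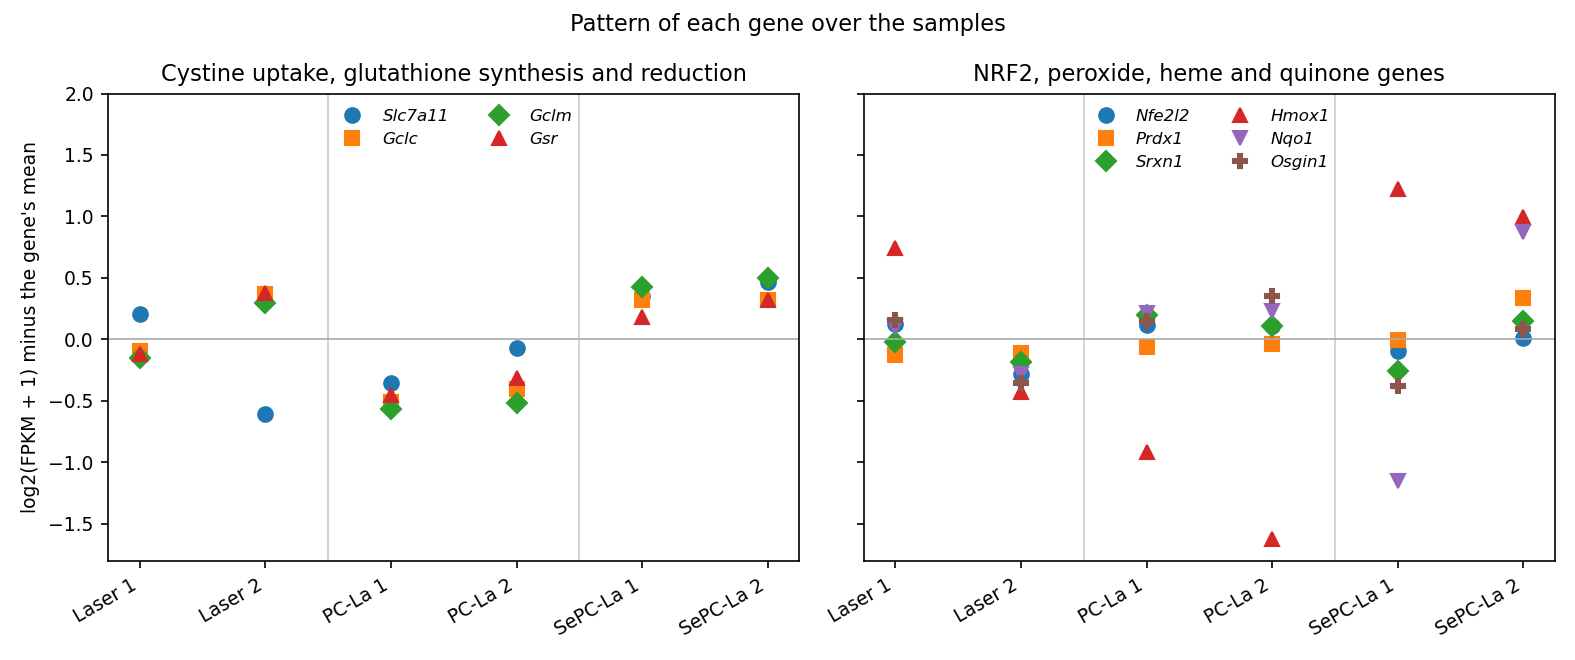
Pattern of each of the 10 genes over the 6 samples, as log2(FPKM + 1) minus the mean of the gene (vertical axis). The left panel holds Slc7a11, Gclc, Gclm and Gsr, and the right panel the other 6 genes. Gclc, Gclm and Gsr lie close together in every sample, Slc7a11 departs from them in the Laser samples, and Hmox1 and Nqo1 have the widest spread.

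Prdx1 encodes a peroxiredoxin, an abundant enzyme that reduces hydrogen peroxide, and Srxn1 encodes sulfiredoxin, which repairs overoxidized peroxiredoxins. Prdx1 (ENSMUSG00000028691, chromosome 4 from 116685544 to 116700822) stood at 147 and 149 FPKM (Laser), 154 and 157 (PC-La) and 161 and 203 (SePC-La). The 3 groups did not overlap, but the steps were small, 0.28 on the log2 scale for SePC-La against Laser (95% interval -0.07 to 0.64, adjusted p = 0.471 from limma). Srxn1 (ENSMUSG00000032802, chromosome 2 from 152105516 to 152111376) stood at 37.1 and 33.1 FPKM (Laser), 43.4 and 40.7 (PC-La) and 31.5 and 42.0 (SePC-La). The PC-La samples exceeded the Laser samples without overlap, by 0.26 on the log2 scale (-0.14 to 0.66), and the SePC-La samples overlapped both.

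Hmox1 (ENSMUSG00000005413, chromosome 8 from 75093621 to 75100589) had the widest range of the 10 genes, 2.85 on the log2 scale. It encodes heme oxygenase, the inducible enzyme that opens heme to biliverdin, iron and carbon monoxide. The Laser samples had 265 and 117 FPKM of Hmox1, those of PC-La 83.4 and 50.4, and those of SePC-La 369 and 315. No group overlapped another, with PC-La lowest and SePC-La highest. The means were 191 ± 105, 66.9 ± 23.3 and 342 ± 38.6 FPKM (SD, n = 2 each), so that the SePC-La mean was 5.12 times the PC-La mean, 1.79 times the Laser mean, and the PC-La mean 0.350 times the Laser mean. Hmox1 made up 42.5% and 23.9% of the summed FPKM of the 10 genes in the Laser samples. The share was 19.2% and 12.3% under PC-La and 49.6% and 40.8% under SePC-La.

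The genes with the pattern over the 6 samples most like that of Hmox1 were Adm (root mean square difference 0.298 on the centred log2 scale), Ackr3 (0.334) and Slpi (0.343), out of 10852 compared. Adm, the gene of the vasodilator peptide adrenomedullin, stood at 67.6 and 29.96 FPKM (Laser), 31.7 and 20.97 (PC-La) and 154 and 107 (SePC-La). The likeness to Hmox1 was thus looser than that of the closest genes to Nfe2l2, whose range was narrower.

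Nqo1 encodes a quinone reductase and is among the most used readouts of NRF2 activity. Its level (ENSMUSG00000003849, chromosome 8 from 107388225 to 107403206, minus strand) was 9.01 and 6.68 FPKM (Laser), 9.85 and 9.98 (PC-La) and 3.21 and 16.1 (SePC-La). The SePC-La samples were the lowest and the highest of the 6, with 72 and 437 reads. Adipocyte markers also split these samples, with a summed level of 3.08 FPKM in replicate 1 and 20.1 in replicate 2 (1.57 to 6.17 in the other groups), and 0 of the 2 tested out of 5 had an unadjusted p under 0.05 in any comparison. Summed fibroblast markers (122 and 634 FPKM) and macrophage markers (991 and 1484) were also lower in SePC-La replicate 1 than in replicate 2. The same held for neutrophil (338 and 443), erythroid (614 and 933), skeletal muscle (1.73 and 7.10) and general epithelial markers (188 and 277). Endothelial markers (30.2 and 22.7) and proliferation genes (345 and 327) were higher in SePC-La replicate 1. The part of these cell types in the values of Nqo1 was not tested. SePC-La differed from Laser on the log2 scale by -0.05 (95% interval -1.68 to 1.58), but by 0.97 without SePC-La replicate 1 and by -1.06 without SePC-La replicate 2, so its direction rests on which sample is kept. Against PC-La it was -0.36 with all samples, 0.65 without SePC-La replicate 1 and -1.37 without SePC-La replicate 2.

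Osgin1 encodes an oxidative stress-induced growth inhibitor. It lies on chromosome 8 from 119434124 to 119446256 (ENSMUSG00000074063) and stood at 3.78 and 2.35 FPKM (Laser), 3.76 and 4.47 (PC-La) and 2.30 and 3.56 (SePC-La). Both SePC-La samples were below both PC-La samples, with a log2 fold change of -0.40 (95% interval -0.97 to 0.18), and Laser overlapped both groups.

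The first comparison, PC-La against Laser, asks what plain phycocyanin added to the laser. Hmox1, Gclc, Gclm and Gsr were lower in PC-La at an unadjusted p under 0.05, which is 4 of the 10 genes, and none was higher. Of all genes tested, 5.78% had such a p, 2.4% with a lower and 3.38% with a higher level in PC-La. The log2 fold change was -1.43 for Hmox1 (standard error 0.43), -0.59 for Gclc (0.18), -0.62 for Gclm (0.17) and -0.52 for Gsr (0.18), all from limma. After Benjamini-Hochberg adjustment over all 10853 genes, the smallest adjusted p of the 10 genes was 0.705 (Gclm, limma). In limma, 0 genes of the whole table had an adjusted p under 0.05, with 627 at an unadjusted p under 0.05.

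The median log2 fold change of the 10 genes was 0.03 in this comparison, beside -0.00062 over all genes tested, since the 4 lower genes stood beside values above 0 for Nqo1 (0.32), Osgin1 (0.35), Srxn1 (0.26), Nfe2l2 (0.19) and Prdx1 (0.07), none of them with an unadjusted p under 0.05. Groups did not overlap for 7 of the 10 genes, against 42% of all genes tested. PC-La was the higher group for 3 of them (20.4% of all genes) and the lower for 4 (21.6%). The study screened DESeq results by an absolute log2 fold change over 1 with unadjusted p under 0.05. With these cut-offs set on the limma values of log2(FPKM + 1) instead, Hmox1 passed, and 1.29% of all genes did. The fold changes depended on single samples. Without Laser replicate 1, Hmox1 was at -0.84, Gclc at -0.83, Gclm at -0.84 and Gsr at -0.76, and Osgin1 (0.61) and Nfe2l2 (0.39) also had an unadjusted p under 0.05. Without Laser replicate 2, Hmox1 was at -2.01, Gclc at -0.36, Gclm at -0.39 and Gsr at -0.27, the last no longer under that p. Without PC-La replicate 1, Hmox1 alone of the 10 kept it, with Gclc at -0.54, Gclm at -0.59 and Gsr at -0.45. Without PC-La replicate 2, Hmox1 (-1.07) and Gsr (-0.58) did not keep it.

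SePC-La against Laser asks the same of selenium-enriched phycocyanin. None of the 10 genes had an unadjusted p under 0.05 in limma, while 12.1% of all genes tested did, 4.9% with a higher and 7.24% with a lower level in SePC-La. The largest differences were those of Hmox1 (log2 fold change 0.95, 95% interval -0.12 to 2.02), Slc7a11 (0.61) and Gclm (0.39, -0.03 to 0.80). These 3 genes and Prdx1 were higher in SePC-La without overlap of the groups, 4 of the 10 genes, and none was lower. Of all genes tested, 40.6% had groups without overlap, 15% with SePC-La higher and 25.6% with SePC-La lower. For Gclc and Gsr the difference was 0.18 (-0.24 to 0.60) and 0.12 (-0.33 to 0.56), and without Laser replicate 1 it was -0.05 and -0.13. Hmox1 was at 0.36 with Laser replicate 2 left out and at 1.53 with Laser replicate 1 left out, where its unadjusted p was under 0.05, as was that of Slc7a11 (1.01). Without Laser replicate 2, Gclc (0.41), Gclm (0.61) and Gsr (0.37) reached that p. Without SePC-La replicate 1, Nqo1 (0.97) and Prdx1 (0.45) did, and without SePC-La replicate 2, Nqo1 (-1.06). With all samples, the smallest adjusted p of the 10 genes was 0.425 (Gclm, limma).

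The third comparison, SePC-La against PC-La, sets the selenium-enriched against the plain photosensitizer, both followed by the laser. Hmox1, Gclm, Gclc and Gsr were higher in SePC-La at an unadjusted p under 0.05, 4 of the 10 genes, and none was lower. Of all genes tested, 24.3% had such a p, 9.91% with a higher and 14.4% with a lower level in SePC-La. The log2 fold change was 2.38 for Hmox1 (95% interval 1.31 to 3.45), 1.00 for Gclm (0.59 to 1.42), 0.77 for Gclc (0.35 to 1.20) and 0.64 for Gsr (0.19 to 1.08). The adjusted p from limma was 0.126, 0.123, 0.126 and 0.139 for these genes, so none passed the correction. In limma, 0 of the 10853 genes did, with 2637 at an unadjusted p under 0.05.

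Hmox1, Gclm and Gclc kept their direction and an unadjusted p under 0.05 whichever of the 6 samples was left out, from 2.02 to 2.73 for Hmox1, from 0.96 to 1.04 for Gclm and from 0.72 to 0.83 for Gclc. Gsr did not keep it without PC-La replicate 1 (0.57) or SePC-La replicate 2 (0.56). Slc7a11 (0.62) reached that p without either Laser sample, Nqo1 (0.65) and Prdx1 (0.38) without SePC-La replicate 1, and Nqo1 (-1.37) and Srxn1 (-0.41) without SePC-La replicate 2. Hmox1 and Gclm met the screening cut-offs, again set on the limma values, as 2.98% of all genes did. The fold change of Gclm was just at the limit. Groups did not overlap for 8 of the 10 genes, 6 higher and 2 lower in SePC-La, against 65.5% of all genes tested, 26% higher and 39.5% lower. The median over the 10 genes was 0.42, beside -0.07 over all genes tested. This comparison shares its PC-La samples with the first, and both comparisons with Laser share the Laser samples, so the 3 sets of values are not independent of each other.

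**Figure D3:**
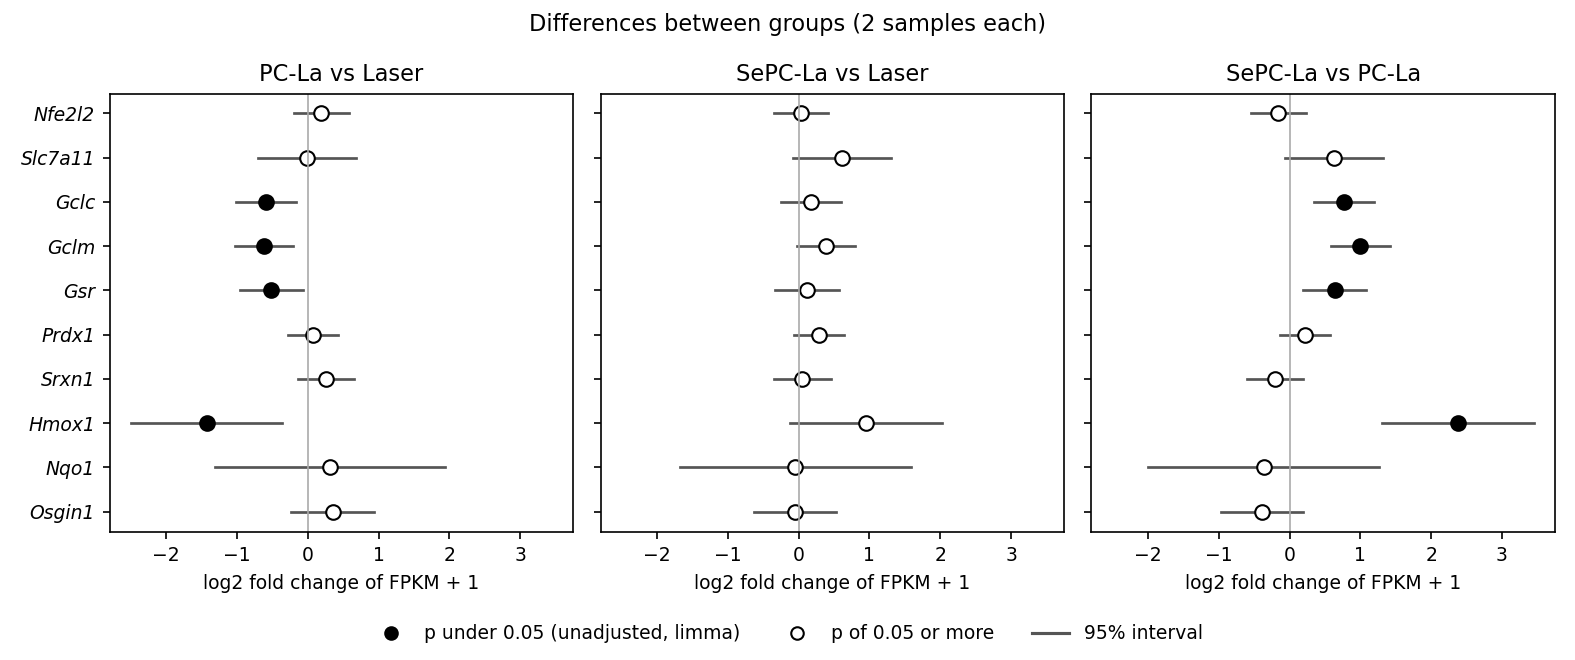
Log2 fold change of FPKM + 1 (horizontal axis) of each of the 10 genes in the 3 comparisons, with 95% intervals from limma and 2 samples a group. Filled points have an unadjusted p under 0.05. Hmox1, Gclc, Gclm and Gsr are filled below 0 for PC-La against Laser and above 0 for SePC-La against PC-La, and no gene is filled for SePC-La against Laser.

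Other genes of the antioxidant system were described from 9 lists with 98 genes in all, of which 83 passed the filter. In what follows, higher and lower mean at an unadjusted p under 0.05, and in no case was the adjusted p under 0.05. In PC-La against Laser, 8 of the 83 were lower and 0 higher (9.64% of them, beside 5.78% of all genes), with a median log2 fold change of -0.14. In SePC-La against Laser, 13 were higher and 1 lower (16.9%, beside 12.1%), with a median of 0.16. In SePC-La against PC-La, 28 were higher and 2 lower (36.1%, beside 24.3%), with a median of 0.24. There, calls were near or below that 24.3% for NRF2 control (2 of 10) and for glutathione peroxidases with thioredoxin reductases (1 of 7). So were calls at an unadjusted p under 0.05 for thioredoxins and other peroxiredoxins (2 of 8) and for superoxide dismutases with catalase (1 of 4). The share of higher genes among all genes at that p depended on the scaling between samples. It was 40.4% for SePC-La against Laser but 60.2% with median-ratio scaling and 53.3% with quantile normalization, and for SePC-La against PC-La it was 40.8%, 53.6% and 52.1%.

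Among the genes that control NRF2, 10 were tested and 0 had an unadjusted p under 0.05 in PC-La against Laser. Maff, a small MAF partner of NRF2, was higher in SePC-La than in Laser (log2 fold change 0.63) and than in PC-La (0.62), and Mafk, another, than in PC-La (0.56). In no comparison did Keap1 reach that p.

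Of the other genes that supply glutathione, 10 of 13 were tested. Slc3a2, the partner chain of Slc7a11 in the cystine exchanger and of several amino acid transporters, was lower in PC-La than in Laser (log2 fold change -0.30) and higher in SePC-La than in Laser (0.52) and in PC-La (0.83). Cth, which makes cysteine from cystathionine, was higher in SePC-La by 1.13 against Laser and 1.29 against PC-La. Chac1 is an enzyme that degrades glutathione rather than making it, and it was higher in SePC-La than in PC-La by 1.76. Altogether 5 of the 10 were higher in SePC-La than in PC-La and 0 lower, beside 9.91% and 14.4% of all genes.

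Of the glutathione transferases and other enzymes that use glutathione, 19 of 28 were tested. In SePC-La 7 were higher and 1 lower than in PC-La, beside 9.91% and 14.4% of all genes. Esd, an esterase that takes part in formaldehyde removal through glutathione, had log2 fold changes of -0.46 in PC-La against Laser, 0.68 in SePC-La against Laser and 1.14 in SePC-La against PC-La. Gstp1, a glutathione transferase, stood at -0.44 in PC-La against Laser and 0.74 in SePC-La against PC-La. Gsto1, another transferase, was higher in SePC-La by 0.34 against Laser and 0.59 against PC-La. A pseudogene is named after Gstp1, and reads that match both could be shared with it or left uncounted.

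Selenium is built into several glutathione peroxidases and into the thioredoxin reductases. Of a list of genes of both families, not all of them selenium enzymes, 7 of 9 were tested. Of these, 0 had an unadjusted p under 0.05 in either comparison with Laser, and Txnrd1, a cytosolic thioredoxin reductase, was higher in SePC-La than in PC-La (log2 fold change 0.65). The peroxidases Gpx1 and Gpx4 did not reach that p in any comparison. Among the 8 thioredoxins and other peroxiredoxins, Prdx6 was lower in PC-La than in Laser by -0.50 on the log2 scale and higher in SePC-La than in PC-La by 0.81, and Txn2, the mitochondrial thioredoxin, was higher in SePC-La by 0.35 and 0.36 against Laser and PC-La.

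Sod2, the mitochondrial superoxide dismutase, was the gene with the smallest p of these lists in SePC-La against PC-La. It differed there by 0.99 on the log2 scale (adjusted p = 0.0763 from limma, standard error 0.12) and stood at 0.64 in SePC-La against Laser and -0.35 in PC-La against Laser. The other 3 genes of that list, catalase among them, did not reach an unadjusted p under 0.05. NADPH feeds glutathione reductase. Of its 6 supply genes 4 were higher in SePC-La than in PC-La, beside 9.91% of all genes. They included G6pdx (0.78), Tkt (0.50) and Pgd (0.46) of the pentose phosphate pathway. G6pdx was lower in PC-La than in Laser (-0.47).

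Abcc5, an exporter of organic anions, was lower in SePC-La than in either other group and lower in PC-La than in Laser, at -0.86 in SePC-La against Laser, -0.48 in SePC-La against PC-La and -0.37 in PC-La against Laser. Abcc1, which exports glutathione conjugates, was higher in SePC-La by 0.46 and 0.80 against Laser and PC-La, and the aldose reductase gene Akr1b3 by 0.34 and 0.41. Of the 12 tested genes of detoxification and export, 3 were higher and 1 lower in SePC-La than in PC-La, beside 9.91% and 14.4% of all genes.

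Beside Hmox1, 7 genes of heme breakdown and ferritin were tested, with a median log2 fold change of 0.90 in SePC-La against PC-La, 0.54 in SePC-La against Laser and -0.33 in PC-La against Laser. Fth1 and Ftl1, the heavy and light chain of the iron store ferritin, were higher in SePC-La than in PC-La by 0.91 and 0.90 and than in Laser by 0.55 and 0.57. Slc48a1, which moves heme from lysosomes to the cytosol, was at 1.07, 0.55 and, for PC-La against Laser, -0.52. The annotation names 5 pseudogenes after Fth1 and 2 after Ftl1, so their reads could be split or left uncounted.

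**Figure D4:**
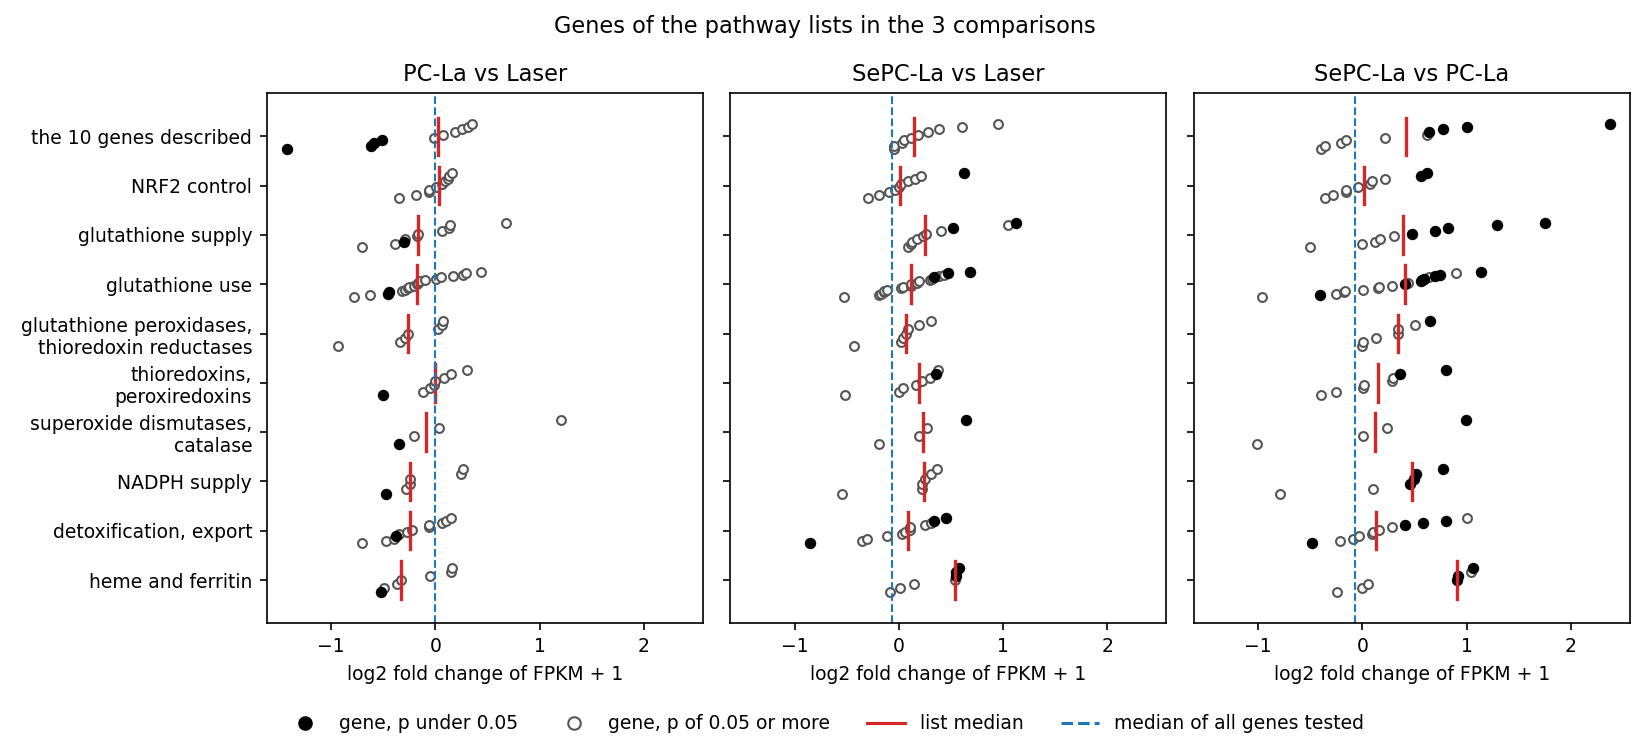
Log2 fold change of FPKM + 1 (horizontal axis) of every tested gene of the 10 genes described and of the 9 other lists (rows) in the 3 comparisons. Filled points have an unadjusted p under 0.05, red lines are list medians and the dashed line is the median of all genes tested. Filled points lie mostly above 0 for SePC-La against PC-La, where 28 genes of the 9 lists are filled above 0 and 2 below.

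**Figure D5:**
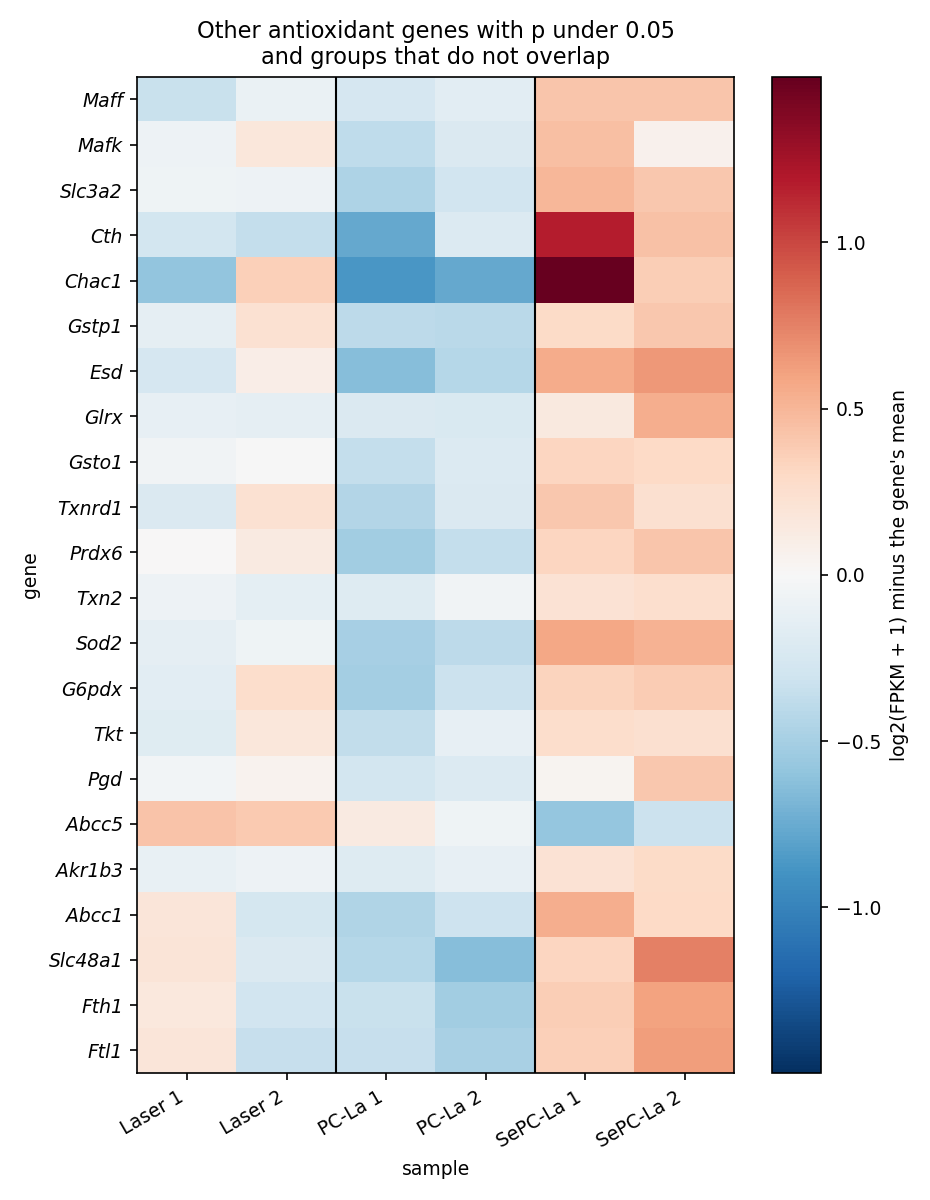
Log2(FPKM + 1) minus the mean of the gene (color) in each of the 6 samples, for the genes of the other lists named by an unadjusted p under 0.05 and groups without overlap in at least 1 comparison, at most 3 a list and comparison. Since the genes were picked for their differences, the contrast between groups is a description. Chac1 and Cth are highest in SePC-La replicate 1, and Abcc5 is the gene with its lowest values in SePC-La.

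Tumor samples are mixtures, and in bulk RNA fewer cells of a type and less RNA per cell cannot be told apart. Of 11 macrophage markers 5 were lower and 0 higher in SePC-La than in PC-La at an unadjusted p under 0.05. Of all genes tested, 14.4% were lower and 9.91% higher at that p. The summed level of the list was 1349 and 2127 FPKM (Laser), 1603 and 1746 (PC-La) and 991 and 1484 (SePC-La). This sum was lower in both SePC-La samples than in both PC-La samples. Its largest part in every sample was Lyz2, with 681 and 1409 FPKM (Laser), 692 and 779 (PC-La) and 599 and 746 (SePC-La). The markers did not all go one way. Without overlap of these 2 groups, 6 were lower in SePC-La and 1, Cd68, was higher (by 0.31 on the log2 scale). Mrc1 (0.28) and Cd163 (0.61) were also above 0, with overlap. Of 6 neutrophil markers tested out of 10, 3 were higher in SePC-La than in PC-La, beside the same 9.91% of all genes. The sum of the list was 152 and 39.9 FPKM (Laser), 147 and 79.5 (PC-La) and 338 and 443 (SePC-La). The 4 not tested, Ly6g, Camp, Ngp and Ltf, were below 1 FPKM on average. The part of macrophages and neutrophils in the values of the 10 genes was not tested.

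Red blood cell RNA also moved with the groups. The 7 erythroid markers, 5 of them tested, summed to 127 and 13.6 FPKM (Laser), 263 and 362 (PC-La) and 614 and 933 (SePC-La), with Slc4a1 below 1 FPKM in every sample. All 5 were higher in SePC-La than in Laser at an unadjusted p under 0.05, beside 4.9% of all genes. Of the 5, 1 was higher than in PC-La, beside 9.91% of all genes. Skeletal muscle markers summed to 23.3 and 156 FPKM (Laser), 4.0 and 3.5 (PC-La) and 1.73 and 7.10 (SePC-La). At that p, 6 of 7 tested were lower in PC-La than in Laser, beside 2.4% of all genes. In SePC-La 7 of 7 were lower than in Laser, beside 7.24%. Fibroblast markers summed to 1243 and 288 FPKM (Laser), 1717 and 1568 (PC-La) and 122 and 634 (SePC-La), and 0 of 7 had an unadjusted p under 0.05. The part of these cell types in the differences of the 10 genes was not tested.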

How the data were processed

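The authors deposited 1 table of normalized expression values, used here as FPKM. The unit is not given in the sources used here and was settled from the values, which gave whole reads (within 0.01 read) for 97.7% to 97.9% of values per sample when multiplied by GENCODE M21 exon length. The submitters' processing notes name HISAT2 2.0.5, HTSeq 0.9.1, DESeq 1.30.0 and mm9.

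Genes averaging 1 FPKM or more were fitted with limma 3.58.1 (R 4.3.3) on log2(FPKM + 1), all 6 samples together, with a mean for each group and trended, robust empirical Bayes moderation. P-values are two-sided and were adjusted by Benjamini-Hochberg over the 10853 genes. Alternatives were other pseudocounts, filters, scalings and moderation, voom on the recovered reads, only the 4 samples compared, a replicate block and each sample left out, where the remaining sample of its group was assumed to vary like the others.

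The 10 genes and all lists were chosen with earlier results of these data known. Other genes were named by an unadjusted p under 0.05 with groups that did not overlap, at most the 3 smallest p per list and comparison, and for Hmox1 and Nfe2l2 by the 3 most similar patterns. Keap1, Gpx1, Gpx4, catalase and single members of marker lists are named outside this rule, after their values were seen. Plots were drawn with matplotlib 3.10.9, and tables with pandas 2.3.3 and NumPy 2.4.6 under Python 3.11.15.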

Additional observations from a re-analysis of the deposited data

How the results depend on the processing

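The 8 fold changes with an unadjusted p under 0.05 kept their sign and that p under all 10 alternatives that kept every sample, 80 values in all, and in 40 of 48 values with a sample left out. For the 22 other fold changes, 196 of 214 values kept both sign and side, 9 passed the threshold and 9 changed sign, all of small size. For SePC-La against Laser the changed signs were 0.010 for Nqo1 and 0.0051 for Osgin1 with median-ratio scaling, and 0.050 for Nqo1, -0.00066 for Srxn1, -0.031 for Gsr, 0.077 for Osgin1 and -0.071 for Nfe2l2 with quantile normalization. For PC-La against Laser they were 0.029 (pseudocount of 0.1) and 0.065 (voom) for Slc7a11. With each sample left out, SePC-La against Laser ran from -0.055 to 0.41 for Gclc, -0.13 to 0.37 for Gsr, -1.06 to 0.97 for Nqo1, -0.30 to 0.21 for Osgin1, -0.15 to 0.26 for Srxn1 and -0.17 to 0.24 for Nfe2l2. PC-La against Laser ran from -0.42 to 0.39 for Slc7a11 and from -0.014 to 0.39 for Nfe2l2, and SePC-La against PC-La from -1.37 to 0.65 for Nqo1. The number of the 10 genes with an unadjusted p under 0.05 was 4 for PC-La against Laser (1 without PC-La replicate 1, 2 without PC-La replicate 2, and 1 to 6 over the samples left out). It was 0 for SePC-La against Laser, but 2 with median-ratio scaling (Gclm, Prdx1), 2 with quantile normalization (Gclm, Slc7a11), 1 with voom (Slc7a11) and 0 to 3 with a sample left out, and 4 for SePC-La against PC-La (3 to 6). Over all genes, the number at an unadjusted p under 0.05 was 627, 1318 and 2637 in the 3 comparisons, and ran from 204 to 2700, 694 to 2121 and 876 to 3636 with a sample left out. It was 975 without the filter and 403 with a minimum of 5 FPKM for PC-La against Laser, which left Osgin1 and Slc7a11 untested, and 700 with only the 4 samples compared for SePC-La against Laser. At an adjusted p under 0.05 from limma, 0 genes passed, but 637 did in SePC-La against PC-La with only the 4 samples compared, 639 and 643 without Laser replicate 1 and 2, 8 with quantile normalization and 3 with a minimum of 5 FPKM. In the first 3 of these, Hmox1, Gclc, Gclm and Gsr were among them. Without Laser replicate 1, 312 genes passed in PC-La against Laser, Gclc and Gclm included, and 97 in SePC-La against Laser. Without SePC-La replicate 2, 1 gene passed in each comparison with SePC-La. The cause was not tested.

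Same-numbered samples share only a number by the labels. Their deviations from the group means correlated at 0.086 (Laser and PC-La), -0.43 (Laser and SePC-La) and -0.18 (PC-La and SePC-La). With the replicate block, 4, 1 (Hmox1) and 4 of the 10 genes had an unadjusted p under 0.05 in the 3 comparisons, and 452, 938 and 2026 of all genes. With 2 samples a group and 72 reads at the lowest, a difference whose interval holds 0 could not be told from 0.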
